A study of Mus musculus with 6 samples.

Results

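The genes described here are 10 members of the Notch pathway, chosen by name: the ligand genes Dll1, Dll3, Dll4, Jag1 and Jag2, and the genes Hes1, Hes5, Hes6, Hey1 and Nrarp, which are targets or modulators of the response. Each symbol matched 1 of the 55400 genes in the deposited table, and all 10 passed the expression minimum, a mean of at least 1 FPKM (fragments per exonic length and library size) over the 6 libraries, which 12199 genes passed. They were measured by sequencing of polyadenylated RNA in mouse motor neuron progenitors, made from C57BL/6 embryonic stem cells in embryoid bodies and harvested on day 4. The 3 Setd5sh libraries and the 3 control libraries all come from cells labelled as wild type in genotype that received 1 µM all-trans retinoic acid, 0.5 µM SAG, a synthetic agonist of the Sonic hedgehog pathway, and 1 µg/mL doxycycline, added 36 h ahead of the harvest. The name Setd5sh has the form of a short hairpin RNA against Setd5, a SET domain protein, but the labels leave its meaning unstated, as they do what the control cells carried and whether replicates are separate cultures, so p-values measure the spread between these libraries only. The stem cells had been grown on mouse fibroblasts, and the labels mention no sorting of the harvested cells.

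Notch signalling passes between touching cells. A ligand of the Delta-like or Jagged family on one cell binds a Notch receptor on its neighbour, the receptor is cut, and its inner part enters the nucleus, where it joins the DNA-binding protein RBPJ and switches on genes such as Hes1, Hes5, Hey1 and Nrarp. In the embryonic neural tube, cells that start to become neurons make proneural factors and Delta-like ligands, while the cells that receive the signal make Hes proteins, which repress proneural genes and keep them as progenitors. The question for these libraries is how the ligand side and the target side stood relative to each other in the Setd5sh and the control libraries. These are bulk samples, so a change in the number of ligand-bearing or receiving cells and a change in RNA per cell cannot be told apart.

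Setd5 was at 14.4, 13.5 and 12.9 FPKM in Setd5sh replicates 1, 2 and 3, against 22.2, 18.8 and 16.7 FPKM in control replicates 1, 2 and 3, giving a log2 fold change (log2FC, Setd5sh over control) of -0.51 (SE 0.16, edgeR quasi-likelihood adjusted p of 0.995). Total counts were 19639303 to 27660851 in Setd5sh libraries and 19871993 to 32046466 in control libraries. Control replicate 1, the deepest, stood apart: its log2 levels correlated with those of the other 5 libraries at 0.938 to 0.958, while the other 5 correlated with each other at 0.971 to 0.995. The defining markers of motor neuron progenitors, such as Olig2 and Nkx6-1, were all above the minimum, with a summed level of 327.5 to 378.1 FPKM in Setd5sh and 287.5 to 322.7 FPKM in control libraries. Markers of postmitotic motor neurons summed to 45.0 to 55.7 FPKM in Setd5sh and 46.8 to 55.8 FPKM in control libraries, with 3 of 8 above the minimum, and markers of the floor plate to 76.3 to 82.4 FPKM in Setd5sh and 62.0 to 73.1 FPKM in control libraries, with 4 of 6.

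In the Setd5sh libraries, the 3 Delta-like ligands and the targets Hes5, Hey1 and Nrarp were higher than in the control library of the same replicate number in all 3 pairs, by 1.06 to 2.13 fold. The labels state no pairing, and only the libraries numbered 2 were clearly alike, so pairs by number are descriptive. Jag2 was lower in all 3 pairs. Hes1, the member with the highest mean level, and Jag1 and Hes6 went both ways. No member passed the edgeR test: 0 of 10 had an adjusted p under 0.05, as did 0 of all 12199 genes tested, or 0%. DESeq2 and limma also called 0 members and 0 genes. At an unadjusted p under 0.05, edgeR listed 149 genes, DESeq2 221 and limma, on log2(FPKM + 1), 152. Of the members, Dll3 and Nrarp were on that edgeR list, both higher in Setd5sh, beside 0.615% of all tested genes that were on it in that direction, and 0 members were on it as lower in Setd5sh, beside 0.607%. Hes5 and Nrarp were the members with every Setd5sh library above every control library, a pattern shown by 3.07% of tested genes on FPKM and 2.63% on TMM-scaled counts. No member had every Setd5sh library below every control library, which 2.14% of tested genes had on FPKM and 2.66% on TMM-scaled counts. Both counts of members moved with single libraries. Without control replicate 1, 5 members, Dll1, Dll4, Jag1, Hes5 and Nrarp, had no overlap with Setd5sh above, beside 6.66% of tested genes, and without Setd5sh replicate 2 these were 6, Dll1, Dll3, Dll4, Hes5, Hey1 and Nrarp, beside 8.04%. At an unadjusted edgeR p under 0.05 there were 4 members (Dll1, Dll3, Hes5 and Nrarp) when control replicate 1 was left out, beside 361 of all 12199 genes in either direction, and 1 (Hes6) when Setd5sh replicate 3 was, beside 53 genes. There were 0 members when control replicate 2 was left out, beside 183 genes, and 0 when Setd5sh replicate 1 was, beside 26 genes. The 6 members that were higher in all 3 pairs compare with 12.8% of tested genes, and the 1 that was lower in all 3 pairs with 12.1%. A positive log2FC was found for 8 of the 10 members and 42.6% of tested genes, and the median was 0.33 over the members and -0.04 over all tested genes.

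**Figure D1:**
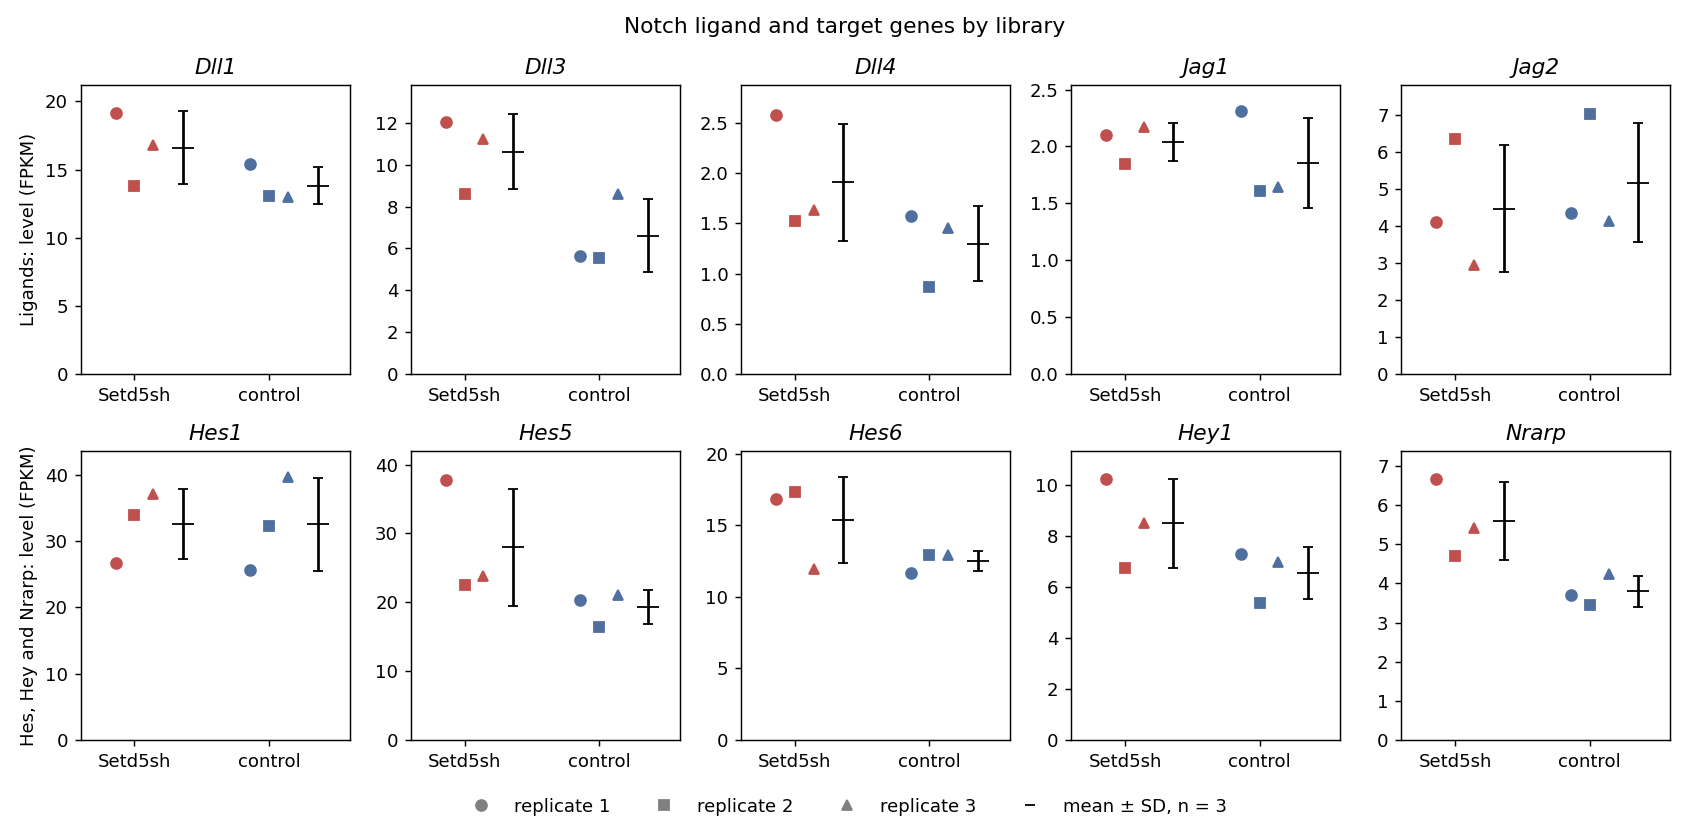
Level in FPKM, as deposited, of each of the 10 genes in the 3 Setd5sh and 3 control libraries, ligands in the upper row, with points shaped by replicate number and the mean ± SD beside them. Hes5 and Nrarp have no overlap between groups, and Dll3 overlaps by 0.01 FPKM, with 8.61 in Setd5sh replicate 2 and 8.62 in control replicate 3.

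Dll1 is the Delta-like ligand with which newly forming neurons of the neural tube activate Notch in their neighbours. The gene (ENSMUSG00000014773) maps to the minus strand of chromosome 17, bases 15367354 to 15376872 of mm10. It was the ligand with the highest level per length, at 19.2, 13.8 and 16.8 FPKM in Setd5sh replicates 1, 2 and 3, against 15.4, 13.1 and 12.97 FPKM in control replicates 1, 2 and 3. Setd5sh replicates 1 and 3 were above all control libraries, and Setd5sh replicate 2 was below control replicate 1, so the groups overlapped. Setd5sh libraries averaged 16.6 ± 2.69 FPKM and control libraries 13.8 ± 1.36 FPKM (SD, n = 3 each), a log2FC of 0.26 (SE 0.18) with an edgeR adjusted p of 0.995. The log2FC was 0.13 without Setd5sh replicate 1, 0.41 without Setd5sh replicate 2 and 0.12 with the replicate block and GC and length offsets. Exons of the antisense gene A930024N18Rik cover 867 bases of Dll1 exons, and its identifier was not found in the deposited table. No label or header says whether the counting used strand, so antisense reads from that stretch may be among the Dll1 counts.

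Proneural proteins such as Neurog2 bind the E-box, CANNTG, and Dll1 is among the genes they are known to switch on, which is why its start region is shown. In the 250 bases before the outer of its RefSeq starts (GRCm38.p6, chr17:15376933-15377182, minus strand, 5′ to 3′), E-boxes on either strand are in capitals.
Dll1: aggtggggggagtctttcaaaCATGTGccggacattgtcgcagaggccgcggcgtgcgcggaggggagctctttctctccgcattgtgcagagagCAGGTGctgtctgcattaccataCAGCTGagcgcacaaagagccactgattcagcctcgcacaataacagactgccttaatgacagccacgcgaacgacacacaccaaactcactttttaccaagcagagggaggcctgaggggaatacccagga
There are 3 matches, all within exons of the antisense gene A930024N18Rik, and 31.8% of the 32851 windows of this length in the RefSeq table hold 2 or more. The match is a description of the letters, not a measured binding site. Of the 10 members, 8 had such a window, all but Hes1 and Hey1.

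Dll3 encodes a divergent Delta-like protein that does not activate Notch in neighbouring cells and is known as a marker of cells entering neurogenesis. It (ENSMUSG00000003436) maps to chromosome 7, minus strand, bases 28293553 to 28302238. Its level was 12.04, 8.61 and 11.2 FPKM in Setd5sh replicates 1, 2 and 3, against 5.66, 5.53 and 8.62 FPKM in control replicates 1, 2 and 3, from 428 to 711 counts per library. Setd5sh replicates 1 and 3 were above every control library, and Setd5sh replicate 2 and control replicate 3 were all but equal. Dll3 had the largest log2FC of the 10, 0.68 (SE 0.24), or 1.6 fold, with an edgeR unadjusted p of 0.0234 and an adjusted p of 0.995. Leaving out control replicate 2 made it 0.55 and leaving out control replicate 3 made it 0.92. Setd5sh stood at 2.13, 1.56 and 1.30 times control in pairs 1, 2 and 3.

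Dll4, a ligand best known from blood vessels and, in the neural tube, from the progenitors of V2 interneurons, had the lowest level of the 10. It maps to the plus strand of chromosome 2, bases 119325784 to 119335962 (ENSMUSG00000027314), and was covered by 91 to 206 counts per library. Levels were 2.58, 1.52 and 1.63 FPKM in Setd5sh replicates 1, 2 and 3 and 1.57, 0.87 and 1.45 FPKM in control replicates 1, 2 and 3. Setd5sh replicate 1 was well above the other 5 libraries, control replicate 2 was well below them, and the groups overlapped. The log2FC was 0.54 (SE 0.35, edgeR adjusted p of 0.995), and 0.25 without Setd5sh replicate 1. Endothelial markers were near 0, with 0 of 8 above the minimum and a summed level of 0.53 to 0.94 FPKM in Setd5sh and 0.61 to 1.52 FPKM in control libraries, whereas V2 interneuron markers, also with 0 of 6 above the minimum, summed to 2.35 to 2.73 FPKM in Setd5sh and 1.80 to 2.61 FPKM in control libraries, a level like that of Dll4. Among these, Foxn4 was at 0.83, 1.06 and 0.51 FPKM in Setd5sh replicates 1, 2 and 3 and at 1.03, 1.38 and 0.60 FPKM in control replicates 1, 2 and 3. Gata3 was at 1.07, 0.79 and 1.69 FPKM in Setd5sh replicates 1, 2 and 3, all above the 0.64, 0.62 and 0.71 FPKM in control replicates 1, 2 and 3, and the part of these cells in the Dll4 values was not tested. The antisense gene Gm14207, which shares 214 exonic bases with Dll4, had 12 to 32 counts per library, in sum 13% of the Dll4 total.

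The 2 Jagged genes had log2FC values nearer to 0 than Dll3 and Dll4, with overlapping groups. Jag1 (ENSMUSG00000027276, chromosome 2, from 137081456 to 137116644, minus strand) stood at 2.10, 1.85 and 2.17 FPKM in Setd5sh replicates 1, 2 and 3 and at 2.31, 1.61 and 1.64 FPKM in control replicates 1, 2 and 3. Its highest and its lowest library were both controls, and the log2FC was 0.12 (SE 0.24, edgeR adjusted p of 0.995), with 0.001 as its value when control replicate 2 was left out and 0.35 when control replicate 1 was. Jag2, which is known from motor neuron progenitors of the ventral spinal cord (ENSMUSG00000002799, chromosome 12, from 112907819 to 112929776, minus strand), stood at 4.10, 6.33 and 2.95 FPKM in Setd5sh replicates 1, 2 and 3, against 4.35, 7.01 and 4.14 FPKM in control replicates 1, 2 and 3. It was highest in the 2 libraries numbered 2, and each Setd5sh library was a little below its partner, at 0.943, 0.903 and 0.713 times control. The log2FC was -0.21 (SE 0.31, edgeR adjusted p of 0.995), and it became -0.51 with Setd5sh replicate 2 left out, 0.03 with control replicate 2 left out and 0.01 with Setd5sh replicate 3 left out.

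The libraries numbered 2, where Jag2 was high, were also the ones with the most pluripotency marker RNA. The summed level of 8 such markers, Dppa5a, Pou5f1 and Nanog among them, was 28.7, 65.0 and 10.1 FPKM in Setd5sh replicates 1, 2 and 3. In control replicates 1, 2 and 3 it was 19.9, 87.9 and 28.9 FPKM. Most of each sum was Dppa5a, at 25.6, 52.3 and 7.98 FPKM in Setd5sh and 15.2, 69.4 and 24.1 FPKM in control replicates 1, 2 and 3. Pou5f1 was at 0.86, 5.23 and 0.27 FPKM in Setd5sh and 1.49, 8.31 and 1.93 FPKM in control replicates 1, 2 and 3. None of the 8 was at 0 in all libraries, and 4 were above the minimum. Markers of paraxial mesoderm, another tissue that uses Notch ligands, summed to 11.1 FPKM in Setd5sh replicate 2 and 6.81 to 8.03 FPKM in the other Setd5sh libraries, and to 13.2 FPKM in control replicate 2 and 7.95 to 8.04 FPKM in the other control libraries. Of these 8 markers, 3 were above the minimum and 1 was at 0 in every library. Feeder fibroblast markers summed to 7.76 to 9.60 FPKM in Setd5sh and 5.78 to 9.03 FPKM in control libraries, with 2 of 8 above the minimum. The part of these cells in the Jag2 values was not tested.

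Taken per length, the 5 ligands together made 40.0, 32.1 and 34.8 FPKM in Setd5sh replicates 1, 2 and 3, against 29.3, 28.1 and 28.8 FPKM in control replicates 1, 2 and 3. Dll1 made up 46.5 ± 2.97% of that sum in Setd5sh and 48.0 ± 3.98% in control (SD, n = 3 each). Dll3 made up 29.7 ± 2.73% in Setd5sh and 23.0 ± 6.01% in control, and Jag2 12.8 ± 6.03% in Setd5sh and 18.1 ± 5.97% in control. Dll4 and Jag1 were the minor ligands, each at 3.10 to 7.89% in every library. Relative to Dll1, Dll3 was at 0.627, 0.623 and 0.666 in Setd5sh replicates 1, 2 and 3 and at 0.368, 0.423 and 0.665 in control replicates 1, 2 and 3. The Setd5sh libraries were close to each other in this ratio, and 1 control library, replicate 3, stood with them.

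**Figure D2:**
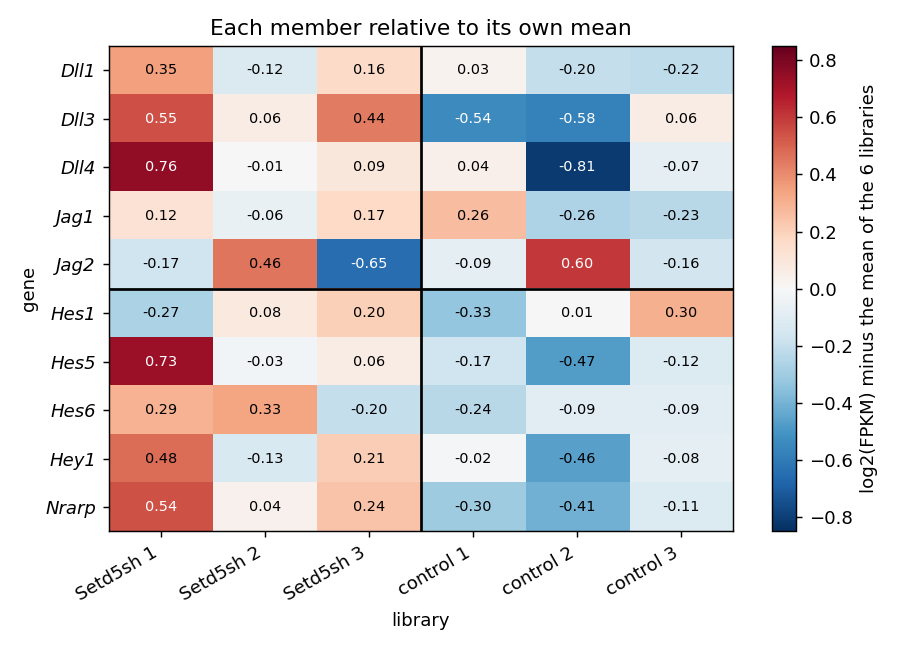
Heat map of log2(FPKM) minus the mean of the 6 libraries for each gene (rows, ligands above the line) in each library (columns, Setd5sh left), with the difference printed in each cell. Setd5sh replicate 1 is the highest library for 6 of the 10 genes and control replicate 2 the lowest for 6, while Jag1, Jag2, Hes1 and Hes6 have their highest value in another library.

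Hes5 is a target through which Notch keeps neural tube cells in the progenitor state. Its start region is shown because it holds the letters that RBPJ binds. The gene (ENSMUSG00000048001) maps to the plus strand of chromosome 4, bases 154960923 to 154962371. In the 250 bases before its RefSeq start (GRCm38.p6, chr4:154960673-154960922, plus strand, 5′ to 3′), the RBPJ core GTGGGAA on either strand is in capitals. The same window of Nrarp (chr2:25180508-25180757, plus strand) follows for comparison.
Hes5: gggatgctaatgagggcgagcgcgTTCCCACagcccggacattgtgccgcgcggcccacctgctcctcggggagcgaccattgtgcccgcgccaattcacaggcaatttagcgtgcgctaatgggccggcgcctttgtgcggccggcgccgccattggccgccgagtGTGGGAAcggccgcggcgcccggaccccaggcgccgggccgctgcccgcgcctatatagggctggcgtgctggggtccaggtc
Nrarp: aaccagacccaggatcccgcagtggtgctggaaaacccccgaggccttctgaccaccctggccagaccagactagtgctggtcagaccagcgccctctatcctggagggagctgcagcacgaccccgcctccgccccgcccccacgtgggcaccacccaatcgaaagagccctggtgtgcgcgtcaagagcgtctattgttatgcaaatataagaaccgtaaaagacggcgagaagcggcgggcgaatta
Hes5 has 2 matches, 226 and 83 bases before the start and on opposite strands, in a window of which 153 bases are exon of Gm20421. Of all 32851 windows, 5.42% hold at least 1 match and 0.161%, or 53 windows, hold 2 or more. Nrarp and the other members with a window had no match within it, which says nothing of sites farther away. The targets Hes1 and Hey1 had no window, so they were not searched.

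Hes5 mRNA was at 37.8, 22.4 and 23.8 FPKM in Setd5sh replicates 1, 2 and 3, against 20.3, 16.4 and 21.0 FPKM in control replicates 1, 2 and 3. Every Setd5sh library was above every control library, though Setd5sh replicate 1 was far above the other 2. Setd5sh libraries averaged 28.0 ± 8.50 FPKM and control libraries 19.3 ± 2.48 FPKM (SD, n = 3 each), a log2FC of 0.53 (SE 0.25) with an edgeR unadjusted p of 0.0678 and an adjusted p of 0.995. Without Setd5sh replicate 1 it was 0.24, and without Setd5sh replicate 2 it was 0.71. The antisense gene Gm20421, with 433 shared exonic bases, had 4 to 36 counts per library against 570 to 1068 for Hes5.

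Nrarp is a direct Notch target whose protein in turn restrains the Notch complex. It maps to the plus strand of chromosome 2, bases 25180758 to 25183339 (ENSMUSG00000078202), in a single exon. It stood at 6.67, 4.70 and 5.42 FPKM in Setd5sh replicates 1, 2 and 3, against 3.71, 3.45 and 4.23 FPKM in control replicates 1, 2 and 3, and was covered by 217 to 357 counts. As with Hes5, the groups did not overlap and Setd5sh replicate 1 was the highest. The log2FC was 0.55 (SE 0.22), or 1.47 fold, with an edgeR unadjusted p of 0.0391 and an adjusted p of 0.995, and it lay between 0.39 and 0.70 without single libraries. The antisense gene Gm38287, which shares 2051 of the 2582 exonic bases of Nrarp, had 0 counts in every library. How reads in stretches shared with an antisense gene were counted is not known here, so the level of Nrarp per length is uncertain, and to a smaller extent those of Dll1, Dll4 and Hes5.

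Hey1, another transcriptional repressor that Notch induces (ENSMUSG00000040289, chromosome 3, from 8663359 to 8667256, minus strand), had 10.2, 6.74 and 8.50 FPKM in Setd5sh replicates 1, 2 and 3, against 7.28, 5.36 and 6.97 FPKM in control replicates 1, 2 and 3. Setd5sh replicate 2 was below 2 of the 3 control libraries but above its partner. The log2FC was 0.37 (SE 0.23, edgeR adjusted p of 0.995), and 0.19 without Setd5sh replicate 1.

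Hes1 encodes the repressor that Notch shares with other signals, and its mRNA is known to oscillate in progenitors. It maps to the plus strand of chromosome 16, bases 30064384 to 30067796 (ENSMUSG00000022528). Levels were 26.7, 34.0 and 37.0 FPKM in Setd5sh replicates 1, 2 and 3 and 25.6, 32.3 and 39.6 FPKM in control replicates 1, 2 and 3. The 2 groups covered nearly the same range, and libraries with the same number stood close together. Setd5sh libraries averaged 32.6 ± 5.31 FPKM and control libraries 32.5 ± 7.02 FPKM (SD, n = 3 each), with a log2FC of -0.004 (SE 0.20, edgeR adjusted p of 0.999) whose sign turned under several settings.

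Hes6 belongs to the same family but counteracts Hes1, and proneural factors rather than Notch are known to induce it, so it sits on the neurogenic side. The gene (ENSMUSG00000067071) maps to the minus strand of chromosome 1, bases 91411483 to 91414038. E-boxes are in capitals in the 250 bases before the outer of its RefSeq starts (GRCm38.p6, chr1:91414039-91414288, minus strand, 5′ to 3′).
Hes6: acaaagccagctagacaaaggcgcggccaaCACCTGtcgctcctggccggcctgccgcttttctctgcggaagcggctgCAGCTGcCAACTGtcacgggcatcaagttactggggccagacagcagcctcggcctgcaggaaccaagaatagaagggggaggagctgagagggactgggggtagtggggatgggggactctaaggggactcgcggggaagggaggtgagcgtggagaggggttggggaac
This window has 3 matches and the Dll1 window above also 3. The window at the inner RefSeq start, not shown, has 1 in each of these genes. The Hes5 and Nrarp windows above hold 1 E-box each, left unmarked, and those of Dll3 and Jag1 hold E-boxes too. Those of Dll4 and Jag2 hold none, and 66.2% of all windows hold at least 1. Hes6 was at 16.8, 17.3 and 11.9 FPKM in Setd5sh replicates 1, 2 and 3, against 11.7, 12.9 and 12.9 FPKM in control replicates 1, 2 and 3. Setd5sh replicates 1 and 2 were above the control range, which was narrow, and Setd5sh replicate 3 was inside it. Hes6 had a log2FC of 0.29 (SE 0.19, edgeR adjusted p of 0.995), which became 0.45 with Setd5sh replicate 3 left out and 0.18 with the replicate block and GC and length offsets.

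By mean FPKM over all 6 libraries, the order was Hes1 at 32.5, Hes5 at 23.6, Dll1 at 15.2, Hes6 at 13.9, Dll3 at 8.61, Hey1 at 7.52, Jag2 at 4.81, Nrarp at 4.70, Jag1 at 1.95 and Dll4 at 1.603. Hes5 was above Dll1, Hes6 above Dll3 and Nrarp above Jag1 in 6 of 6 libraries. The other neighbours changed places in at least 1 library. Hes5 exceeded Hes1 in Setd5sh replicate 1, and Jag2 and Nrarp were each the higher in 3 libraries. The most expressed, Hes1, was above 85.9% of tested genes in mean FPKM and the least, Dll4, above 10.1%.

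**Figure D3:**
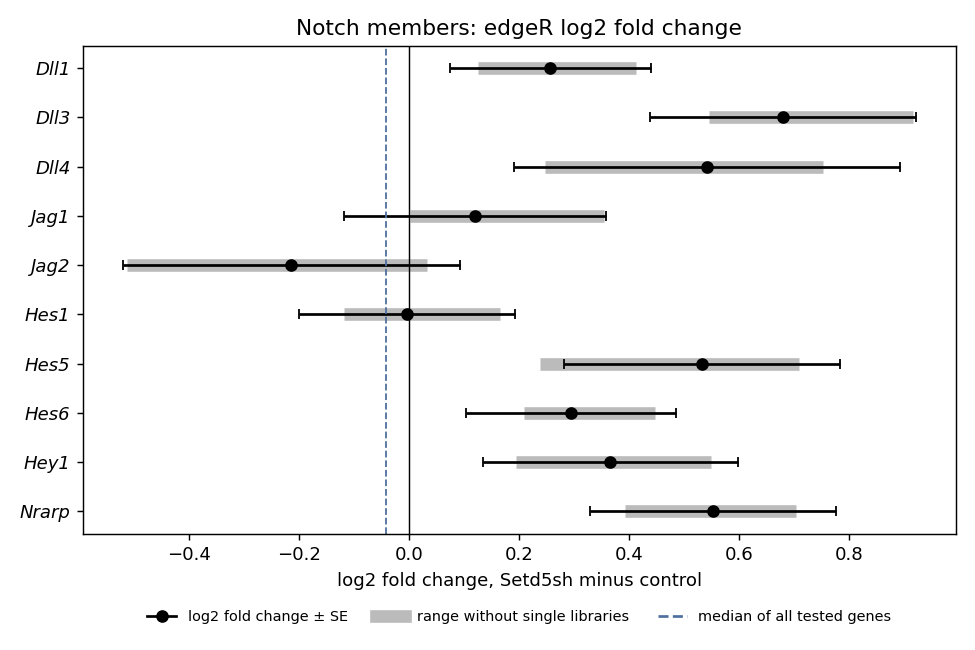
edgeR log2FC, Setd5sh minus control, of the 10 genes (points) with its SE (lines) and the range of the values when single libraries are left out (grey bars). The dashed line is the median of all tested genes at -0.04, and Dll3 lies farthest to the right at 0.68.

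Ligand and target levels were set against each other within each library. The ratio of Dll1 to Hes5 in FPKM was 0.508, 0.616 and 0.707 in Setd5sh replicates 1, 2 and 3 and 0.757, 0.796 and 0.616 in control replicates 1, 2 and 3. Control replicate 3 was as low as the middle Setd5sh library, so the groups overlapped. On the log2 scale the mean was -0.73 ± 0.24 in Setd5sh and -0.48 ± 0.20 in control (SD, n = 3 each), a difference of -0.25 with an exact two-sided permutation p of 0.2, where 0.1 is the smallest that 3 against 3 allows.

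With Hes1 in place of Hes5, the ratio of Dll1 to target was 0.719, 0.407 and 0.454 in Setd5sh replicates 1, 2 and 3 and 0.601, 0.406 and 0.327 in control replicates 1, 2 and 3. Here the mean on the log2 scale was the higher one in Setd5sh, -0.97 against -1.22 in control, so the 2 targets gave differences of opposite sign. Against Hes1 the ratio was higher in Setd5sh in all 3 pairs, by very little in pair 2. Between the 2 targets, Hes5 was at 1.42, 0.661 and 0.643 times Hes1 in Setd5sh replicates 1, 2 and 3 and at 0.793, 0.510 and 0.531 times Hes1 in control replicates 1, 2 and 3. This ratio too was higher in Setd5sh in all 3 pairs, and Setd5sh replicate 1 is the library in which Hes5 was above Hes1. Dll3 relative to Hes5 was 0.319, 0.384 and 0.471 in Setd5sh replicates 1, 2 and 3 and 0.279, 0.337 and 0.410 in control replicates 1, 2 and 3. Here as well each Setd5sh library was a little above its partner, and the groups overlapped in all 3 of these ratios.

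**Figure D4:**
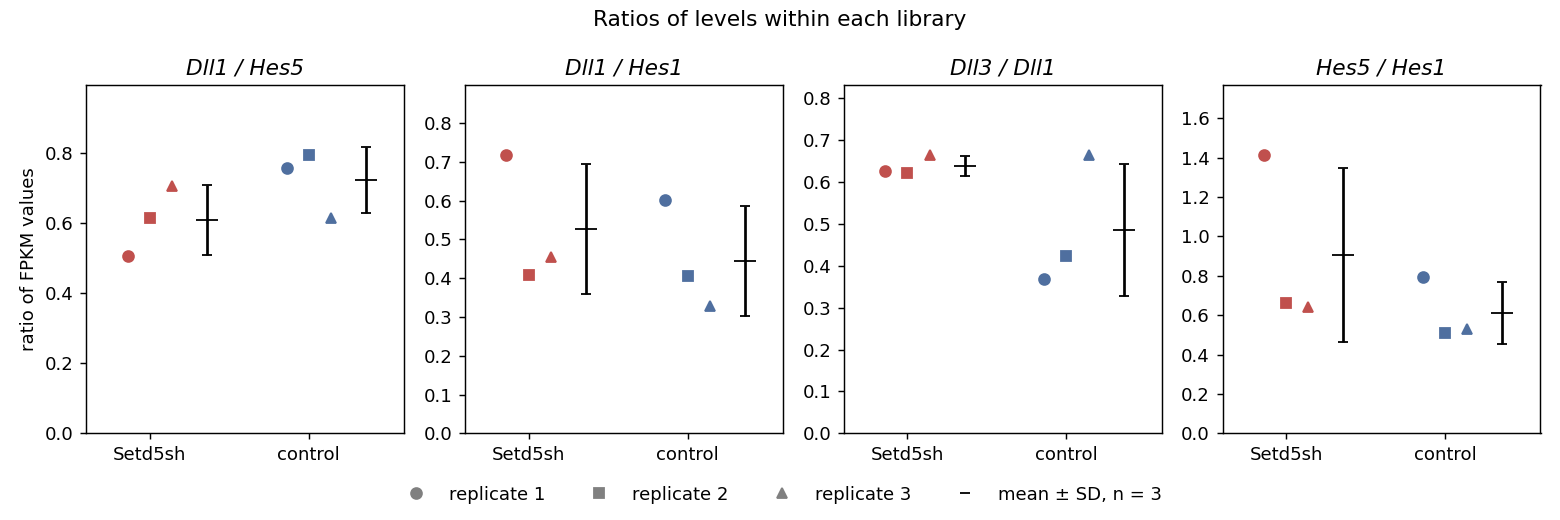
Ratios of FPKM values within each library for Dll1 to Hes5, Dll1 to Hes1, Dll3 to Dll1 and Hes5 to Hes1, with Setd5sh left, points shaped by replicate number and the mean ± SD beside them. Groups overlap in all 4 panels, and Hes5 to Hes1 is above 1 in Setd5sh replicate 1 at 1.42.

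Of the receptors through which these ligands act, Notch1, Notch2 and Notch3 were above the expression minimum. Notch1, the main receptor of neural progenitors, was at 11.7, 9.35 and 10.3 FPKM in Setd5sh replicates 1, 2 and 3, against 9.36, 8.04 and 8.59 FPKM in control replicates 1, 2 and 3. Setd5sh replicates 1 and 3 were above every control library and Setd5sh replicate 2 was 0.01 FPKM under the highest of them, with a log2FC of 0.26 (SE 0.16, edgeR adjusted p of 0.995). Notch3 was the receptor with the highest level, at 23.7 ± 2.64 FPKM across Setd5sh libraries and 21.7 ± 1.62 FPKM across control libraries, followed by Notch2 at 12.6 ± 0.593 FPKM across Setd5sh libraries and 12.4 ± 0.718 FPKM across control libraries. Notch4 was under the minimum. Rbpj, the DNA-binding partner, had 8.63 ± 0.380 FPKM across Setd5sh libraries and 9.11 ± 0.523 FPKM across control libraries (SD, n = 3 each). The coactivator gene Maml1 had a log2FC of 0.24 (SE 0.15). Of the 8 receptor and nuclear genes, 6 were tested, 5 had a positive log2FC, beside 42.6% of all tested genes, and 0 passed. The median was 0.11.

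Genes that act around the ligands and the cut receptor had medians between 0.08 and 0.10. Over all tested genes the median was -0.04 and 42.6% had a positive log2FC. Of 12 genes for ligand activity and sugar modification, 9 were tested, 5 were positive, 0 passed and the median log2FC was 0.10. Mfng, a Fringe enzyme that modifies Notch, had one of 0.38 (SE 0.24), Pofut1, which adds fucose to Notch, 0.19 (SE 0.13), and Mib1, the ubiquitin ligase that ligands need, -0.43 (SE 0.35). Mib1 stood at 13.6, 11.3 and 11.9 FPKM in Setd5sh replicates 1, 2 and 3 and at 25.4, 14.04 and 9.42 FPKM in control replicates 1, 2 and 3, with the highest value in control replicate 1, the library that stood apart. Of 9 cleavage genes, 8 were tested, 5 were positive and 0 passed, with a median of 0.09. Among them were the secretase gene Ncstn at 0.17 (SE 0.16) and Adam10, which makes the outer cut, at -0.29 (SE 0.22). Of 10 genes that restrain or turn over Notch, 9 were tested, 5 were positive and 0 passed, with a median of 0.08. The Deltex gene Dtx4 had 44.4 ± 10.5 FPKM across Setd5sh libraries and 32.2 ± 3.52 FPKM across control libraries, a log2FC of 0.45 (SE 0.22), and the corepressor gene Spen had 0.23 (SE 0.16).

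The other Hes and Hey genes were hardly expressed. Of 8 on that list, Hes2, Hes3, Hes7, Hey2, Heyl and Helt were under the minimum, and those tested were Bhlhe40 and Bhlhe41, related repressors that are not Notch targets in the usual sense. Bhlhe40 had 3.61 ± 2.28 FPKM across Setd5sh libraries and 5.68 ± 1.92 FPKM across control libraries, a log2FC of -0.65 (SE 0.48), and Bhlhe41 had 0.897 ± 0.387 FPKM across Setd5sh libraries and 1.54 ± 0.481 FPKM across control libraries, one of -0.78 (SE 0.36). Neither passed.

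The 2 cell states that exchange the signal were followed through their marker lists. On the neurogenic side, 15 of 20 proneural and young-neuron genes were tested, 14 had a positive log2FC, 0 passed and the median was 0.38. An unadjusted edgeR p under 0.05 was found for 5, all higher in Setd5sh. Over all tested genes, 42.6% were positive and 0.615% had such a p as higher in Setd5sh. Neurog1, a proneural factor, was at 18.8, 13.6 and 15.8 FPKM in Setd5sh replicates 1, 2 and 3, against 9.55, 9.44 and 10.5 FPKM in control replicates 1, 2 and 3. Neurog2, the proneural factor of motor neuron progenitors, was at 11.1, 8.59 and 9.99 FPKM in Setd5sh replicates 1, 2 and 3, against 6.32, 5.95 and 6.69 FPKM in control replicates 1, 2 and 3. Both had every Setd5sh library above every control library, as 3.07% of tested genes had on FPKM. Their log2FC was 0.70 (SE 0.19) for Neurog1 and 0.64 (SE 0.19) for Neurog2, and both had their highest value in Setd5sh replicate 1, as Dll1, Dll3 and Hes5 did. Tubb3, the neuronal tubulin gene, had a log2FC of 1.15 (SE 0.27). The summed level of the list was 316.8, 278.0 and 323.3 FPKM in Setd5sh replicates 1, 2 and 3, against 256.2, 237.7 and 243.6 FPKM in control replicates 1, 2 and 3.

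On the receiving side, 13 of 14 progenitor genes were tested, 7 had a positive log2FC, beside 42.6% of all tested genes, and 0 passed. The median was 0.19. An unadjusted edgeR p under 0.05 was found for 1, Vim, higher in Setd5sh, beside 0.615% of all tested genes in that direction. Vim and Nes, intermediate filament genes of progenitors, had log2FC values of 0.45 (SE 0.19) and 0.44 (SE 0.22), and Nkx6-1, a factor of ventral progenitors, 0.38 (SE 0.21). The other 6 tested genes of the list had a negative log2FC, from -0.01 for Pax6 and -0.02 for Sox2 to -0.30 (SE 0.29) for Prom1. Sox1, at -0.17 (SE 0.15), had every Setd5sh library below every control library, as 2.14% of tested genes had on FPKM. These negative genes were named after their values were seen. The summed level was 705.5, 594.5 and 616.6 FPKM in Setd5sh replicates 1, 2 and 3, against 521.6, 528.2 and 578.2 FPKM in control replicates 1, 2 and 3. In both lists the Setd5sh sums were above all control sums. Setd5sh replicate 1 had the highest progenitor sum, and it was also the highest library for Hes5, Hey1 and Nrarp. The same library was the highest for the ligands Dll1, Dll3 and Dll4. The target Hes1 was at 26.7 FPKM there, below the 34.0 and 37.0 FPKM of Setd5sh replicates 2 and 3. The part of either cell state in the member values was not tested.

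**Figure D5:**
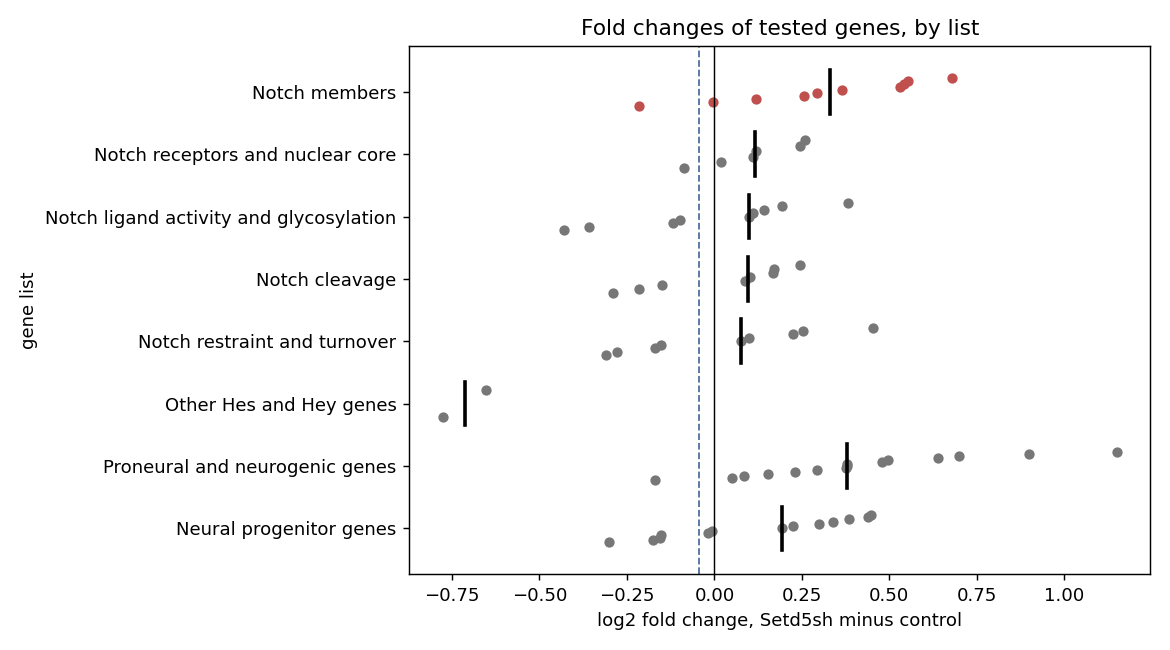
edgeR log2FC, Setd5sh minus control, of every tested gene (points) in the members' list (red) and in 7 other lists (grey), with black bars at each list's median. The dashed line is the median of all tested genes at -0.04, and the medians are 0.33 for the members and 0.38 for the proneural and neurogenic genes.

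Among all tested genes, those whose log2(FPKM + 1) over the 6 libraries was most like that of Dll1 were Pycr1, Slc1a5, Slc39a14, Stc2 and Efnb3, at a Pearson r of 0.987 to 0.992. For Hes5 they were Emilin2, Capn10, Dpysl5, Rexo2 and Grk6, at 0.981 to 0.994. A correlation over 0.9 with Dll1 was found for 130 genes and with Hes5 for 82. With 6 libraries and 12199 genes these values only describe the likeness.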

How the data were processed

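In the single table the authors deposited, each gene has its exonic length and, per library, an unnormalised read count and its FPKM. Per the submitters' processing notes, HISAT2, SAMtools, HTSeq and DESeq2 and the mm10 build were used; no source used here gives the annotation release or strand setting. The deposited FPKM values divide each count by exonic length and by the column total, with no further scaling between libraries. Symbols and positions came from GENCODE M21, in which 55140 identifiers (99.5%) were found, and start regions from RefSeq on GRCm38.p6; the bases after the start were left out.

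edgeR's quasi-likelihood test was fitted on the counts of all 12199 genes with a mean of at least 1 FPKM, with TMM scaling and Benjamini-Hochberg adjustment (two-sided, threshold 0.05); SE is the size of the log2 fold change divided by the square root of F. Motifs were sought on both strands. Scripts were tested on simulated data. Software was DESeq2 1.42.0, edgeR 4.0.16, limma 3.58.1, R 4.3.3 and matplotlib 3.10.9. The named genes are all members, Setd5, Notch1, Notch2, Notch3 and Rbpj, the 3 tested genes with the smallest p in each pathway list and the 5 genes most like Dll1 and Hes5; Notch4, Olig2, Nanog, Pou5f1, the antisense partners, the untested Hes and Hey genes and some V2 and progenitor markers were added outside this rule, and some genes the rule names are not reported here. Members and lists were chosen with earlier results of these data known.

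Deviations of same-numbered libraries from their group means had correlations over genes of 0.185, 0.69 and 0.127 for numbers 1, 2 and 3. A likeness was clear only for the libraries numbered 2, and the labels state no pairing. Pairs by number are therefore a description, and the main fit was unpaired. No 2 libraries agreed within sampling noise (the smallest chi-square per degree of freedom was 8.49, for control 2 and Setd5sh 2). By this measure control 1 was nearer to Setd5sh 3 (139.4) than to Setd5sh 1 (164.0). Control 3 was nearer to Setd5sh 2 (21.1) than to Setd5sh 3 (33.6).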

Additional observations from a re-analysis of the deposited data

How the results depend on the processing

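No member passed under any of the 14 alternative fits (other scaling, filters, tools, pseudocounts, the replicate block, offsets for GC and length with the replicate block, and each library left out). The lowest adjusted p of any member was 0.373, for Dll3. With no filter on low values 73 of 29462 genes passed, none of them a member, against 0 of 12199; the cause was not tested. With the replicate number as a block 0 members and 0 genes passed, so the block changed no call for genes. Dll3 then had a log2 fold change of 0.69, Nrarp 0.54, Hes5 0.50 and Hes1 0.0036. For the log2 ratio of Dll1 to Hes5, the mean of the paired differences equals the difference of group means by arithmetic. Its value of -0.25 with the block is therefore no separate check. The log2 fold change kept its direction under all 14 for Dll1, Dll3, Dll4, Jag1, Hes5, Hes6, Hey1 and Nrarp. With GC and length offsets added to the replicate block it was lower for every member. Dll1 went from 0.25 to 0.12, Dll4 from 0.56 to 0.42, Hey1 from 0.36 to 0.25 and Nrarp from 0.54 to 0.42. The median over all tested genes went from -0.033 to -0.045. The part of GC and length in the member values was not tested further. Hes1, at -0.004, turned to 0.0081 with RLE size factors, 0.051 with no filter, 0.017 with filterByExpr, 0.0083 with DESeq2, 0.0116 and 0.0122 with limma at pseudocounts of 1 and 0.1, and lay between -0.12 and 0.17 without single libraries. Jag2 lay between -0.51 and 0.032 without single libraries. The log2 ratio difference lay between -0.36 and -0.12 without single libraries. For the count of members with no overlap between groups, 2, the alternatives were added after seeing the data; it was 2 to 6 without single libraries, with 5 without control replicate 1 (6.66% of tested genes) and 6 without Setd5sh replicate 2 (8.04%), where fewer libraries have to be separated. At an unadjusted p under 0.05, 4 members were listed with the replicate block and GC and length offsets, beside 867 of 12190 genes: Dll3, Hes5 and Nrarp as higher in Setd5sh and Jag2 as lower (log2 fold change -0.34). Dll4 has the fewest counts of the members, 91 to 206 per library.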
